A study of Homo sapiens with 20 samples.

Results

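The 10 genes described here encode ligands of the transforming growth factor beta (TGF-beta) superfamily, their secreted antagonists and a protein named for its induction by TGF-beta. They were chosen by gene symbol and are 7 ligands (the activin subunits INHBA and INHBB, the bone morphogenetic proteins BMP2, BMP4 and BMP7, and TGFB1 and TGFB2), 2 antagonists (FST and GREM1) and 1 target (TGFBI), out of 60232 genes in the expression table. All 10 passed the filter on low values that left 27350 genes for testing. RNA sequencing was performed on 5 human gastric cancer cell lines that were treated for 72 h with decitabine (DCB) or with DMSO, the solvent control, with 2 libraries for each of the 10 groups of line and treatment. DCB is a cytidine analogue that becomes built into DNA and traps DNA methyltransferases, so that methylation is lost as cells divide. YCCEL1 and SNU719 carry Epstein-Barr virus (EBV+), whereas AGS, SNU16 and HGC27 do not (EBV-). By the study's classification YCCEL1, SNU719 and AGS have the CpG island methylator phenotype (CIMP+), and SNU16 and HGC27 lack it (CIMP-). Each line stands for its class as 1 established line grown without stroma, and whether both libraries of a group came from separate cultures is not given in the sources used here, so p-values measure only the spread between these libraries, which may be technical.

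Activins, BMPs and TGF-betas are secreted dimers that bring together type I and type II receptor kinases. Activins and TGF-betas then lead to phosphorylation of SMAD2 and SMAD3, and BMPs to that of SMAD1, SMAD5 and SMAD9, and both sets enter the nucleus with SMAD4. Follistatin (FST) binds activins and gremlin (GREM1) binds BMPs outside the cell, where each keeps its ligand from the receptors. In the stomach and intestine the BMP gradient and its antagonists are known for ordering the gland from its proliferating to its differentiated end, and TGF-beta for restraining epithelial growth.

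Values are normalized estimated counts as deposited, and comparisons between genes are not made because they are not scaled to gene length. Fold changes are log2 differences of value + 1 with their standard error (SE), tested with limma and Benjamini-Hochberg adjustment over all 27350 genes. A gene was called at an adjusted p below 0.05. Library totals ran between 7764408 and 9321014, and libraries of 1 group correlated across genes at 0.969 to 0.980. Epithelial markers (EPCAM, KRT8, KRT18, KRT19, CDH1, CLDN4, CLDN7 and ESRP1) averaged at least 10 in every group of YCCEL1, SNU719, AGS and SNU16, and summed to between 38340 and 110102 in each of those libraries. HGC27 stood apart, with an epithelial sum of 686 to 831 in DCB libraries and 267 to 309 in DMSO libraries, and its fibroblast-type markers (COL1A1, COL1A2, COL3A1, DCN, LUM, PDGFRA, PDGFRB and THY1) summed to 51822 to 54632 in DCB and 48623 to 49139 in DMSO. The calls for the 10 genes over the 5 lines and by EBV and CIMP status are therefore also given without it, and the other results that pool lines include it.

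DCB raised 5 or more of these genes in each CIMP+ line, 4 in HGC27 and 1 in SNU16. In AGS, 8 of the 10 genes were higher after DCB, beside 18.5% of all tested genes, and none was lower, beside 9.13%. In SNU719, 6 were higher, beside 13.5%, and none was lower, beside 7.64%. In YCCEL1, 5 were higher, beside 14.6%, and 1 was lower, beside 6.93%. In HGC27, 4 were higher, beside 14.7%, and none was lower, beside 9.03%. In SNU16 only TGFBI was higher, beside 4.5% of all genes, and none was lower, beside 2.34%. With an absolute log2 change above 2 also required, the higher counts were 5 in YCCEL1, 4 in SNU719, 8 in AGS, 1 in SNU16 and 2 in HGC27. The backgrounds under that rule were 7.99%, 6.38%, 9.02%, 2.31% and 4.95%. The median log2 change of the 10 genes was 1.98 in YCCEL1, 1.27 in SNU719, 3.16 in AGS, 0.33 in SNU16 and 0.92 in HGC27, beside medians over all tested genes of 0.09, 0.11, 0.12, 0.01 and 0.04. Those medians include genes listed at 0 in a group, whose size depends on the added 1.

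**Figure D1:**
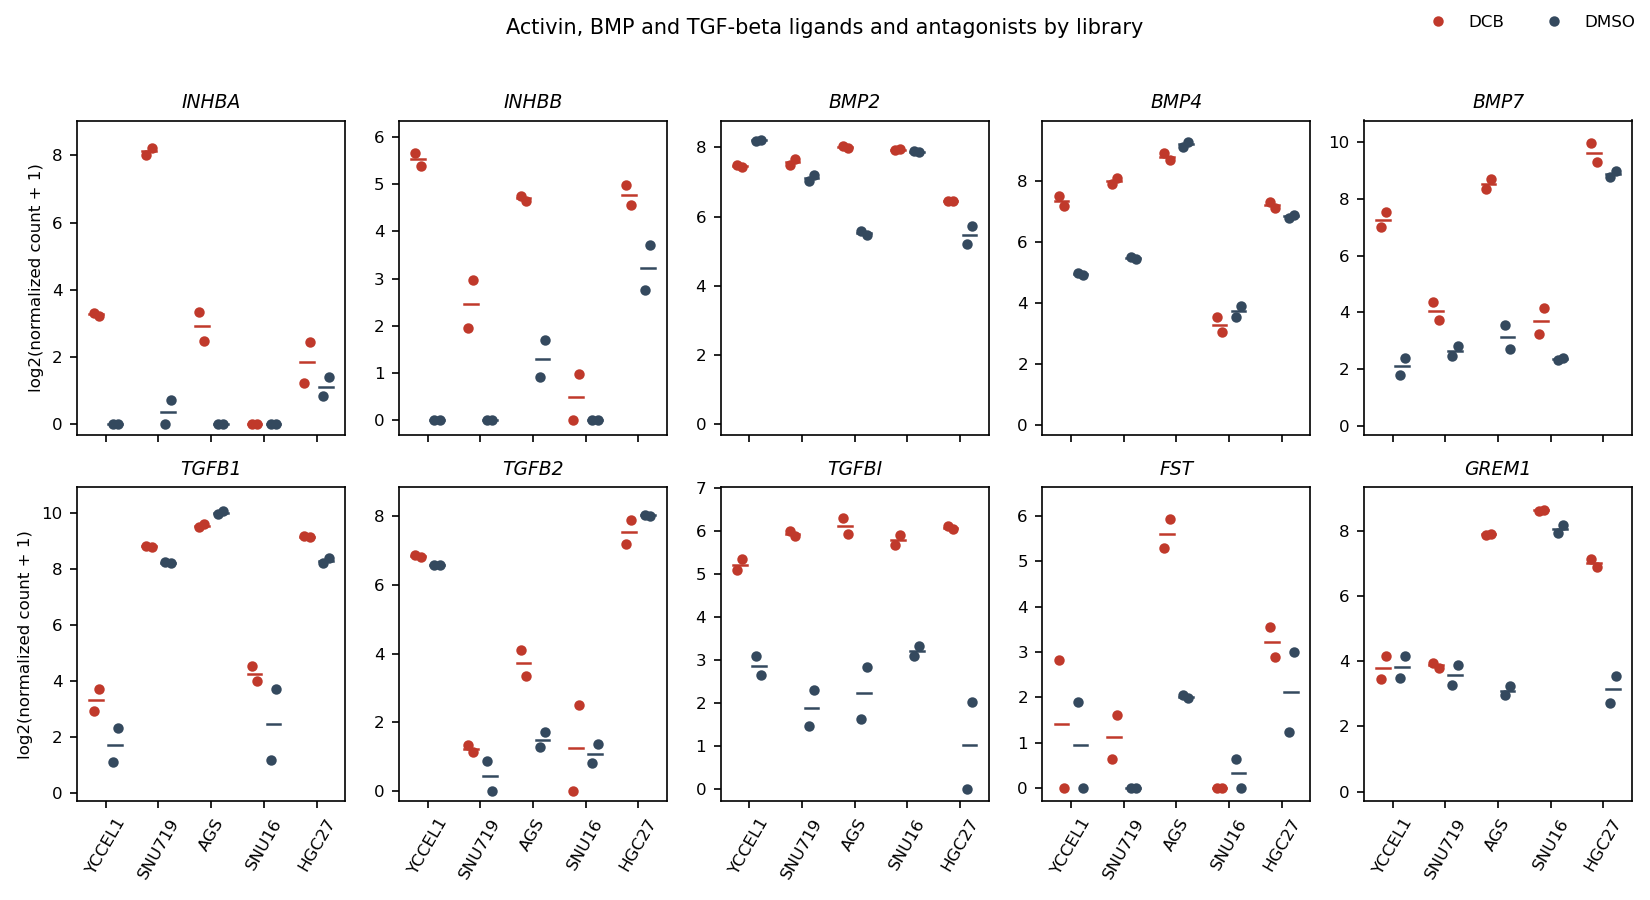
Log2(normalized count + 1) of each of the 10 genes in each library, by cell line, with DCB libraries in red to the left of DMSO libraries in dark blue and a bar at the mean of each pair. TGFBI sits higher in DCB than in DMSO libraries in all 5 lines, INHBA is highest in the DCB libraries of SNU719 (258 and 298), and BMP2 is lower in the DCB libraries of YCCEL1.

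**Figure D2:**
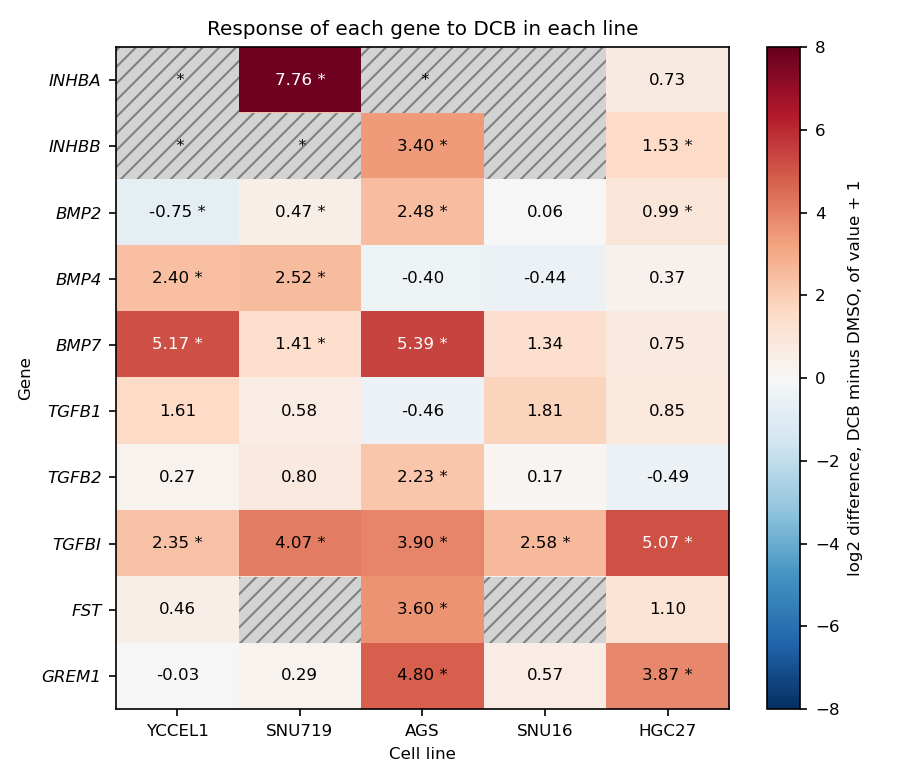
Log2 difference of value + 1, DCB minus DMSO, for each gene (rows) and line (columns), where an asterisk marks an adjusted p below 0.05 and hatching a pair in which a group is listed at 0, so that no size is given. TGFBI is called in all 5 columns, and the 2 largest values are 7.76 for INHBA in SNU719 and 5.39 for BMP7 in AGS.

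The activin subunits were listed at or near 0 in DMSO, except INHBB in HGC27, and rose with DCB in 3 lines (INHBA) or 4 lines (INHBB), with responses that differed by line. INHBA (chr7:41667168-41705834 in GRCh38, minus strand) encodes the beta A subunit, which pairs with itself to form activin A. In SNU719 its normalized count was 258 and 298 in the DCB libraries, against 0 and 0.655 in the DMSO libraries. Both DCB libraries thus lay far above both DMSO libraries, with a log2 change of 7.76 (SE 0.45, adjusted p = 5.09e-08). That size rests on DMSO values near 0 and ran from 5.73 to 8.51 over the alternative settings. In YCCEL1 INHBA was 8.98 and 8.44 in DCB libraries and listed at 0 in both DMSO libraries, and in AGS it was 9.24 and 4.59 in DCB libraries and again listed at 0 in both DMSO libraries. Both increases were called, with adjusted p of 0.000131 in YCCEL1 and 0.000249 in AGS, but no fold can be given against 0. HGC27 had 1.34 and 4.52 in DCB and 0.785 and 1.65 in DMSO, groups that overlap, and SNU16 was listed at 0 in all 4 libraries. In DMSO alone the 5 lines did not differ in INHBA beyond their spread (F test, adjusted p = 0.147).

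INHBB (chr2:120346136-120351803, plus strand) encodes the beta B subunit of activin B. Its DCB libraries had 49.7 and 41.0 in YCCEL1, and DMSO libraries were listed at 0, the clearest separation for this gene (adjusted p = 1.69e-06). SNU719 had 2.88 and 6.79 in DCB and was listed at 0 in DMSO (adjusted p = 0.0020), a call lost with each line fitted alone (0.0660). AGS had 26.1 and 24.1 in DCB, against 0.892 and 2.24 in DMSO, a log2 change of 3.40 (SE 0.48, adjusted p = 0.00011). In these 3 lines the DCB and DMSO libraries did not overlap. HGC27 had 30.5 and 22.5 in DCB and, unlike the other lines, a clear level in DMSO of 5.76 and 12.1. Its log2 change of 1.53 (SE 0.48) was called at an adjusted p of 0.0316, but not without DCB replicate 1 (0.160), DCB replicate 2 (0.0604) or DMSO replicate 1 (0.232). SNU16 had 0 and 0.985 in DCB and was listed at 0 in DMSO (adjusted p = 0.691). INHBB and INHBA thus peaked in different lines: the DCB response of INHBA differed between YCCEL1 and SNU719 (adjusted p = 0.000607), as did that of INHBB in the opposite order (adjusted p = 0.0125).

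The 300-base promoter windows of both subunits from RefSeq (GRCh38.p14, from 250 bases before to 50 bases after a transcript start) are shown because both genes were listed at 0 in several DMSO groups and yet differ in CG content. The dinucleotide CG, which reads the same on both strands and is where methylation sits in mammalian DNA, is in capitals.
INHBA: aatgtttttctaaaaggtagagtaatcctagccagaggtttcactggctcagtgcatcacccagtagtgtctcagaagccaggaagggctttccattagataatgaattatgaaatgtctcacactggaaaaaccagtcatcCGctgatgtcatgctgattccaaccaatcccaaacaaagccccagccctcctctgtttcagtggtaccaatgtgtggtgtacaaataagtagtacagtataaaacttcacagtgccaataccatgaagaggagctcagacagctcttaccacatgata
INHBB: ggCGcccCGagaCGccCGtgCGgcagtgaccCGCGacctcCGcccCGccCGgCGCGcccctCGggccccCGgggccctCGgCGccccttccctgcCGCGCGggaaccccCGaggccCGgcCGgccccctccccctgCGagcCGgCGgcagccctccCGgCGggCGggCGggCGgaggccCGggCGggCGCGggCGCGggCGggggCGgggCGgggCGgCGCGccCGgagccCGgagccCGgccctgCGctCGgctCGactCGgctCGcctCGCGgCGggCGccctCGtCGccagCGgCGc
The INHBA window (chr7:41703041-41703340, minus strand) holds 1 CG, and 96.0% of the 35116 RefSeq windows of this length hold at least as many. The INHBB window (chr2:120345886-120346185, plus strand) holds 58, a number reached by 0.174% of windows. The INHBA window lies inside the gene as the expression table bounds it, so it is not at that gene's outermost start. Windows were given for 8 of the 10 genes, with BMP2 and BMP7 not matched, and the median over all 35116 windows was 14 CGs. TGFB2 held 14, TGFBI 27, TGFB1 28, FST 32, the 3 windows of BMP4 32, 23 and 30, and the 2 windows of GREM1 42 and 31. Methylation itself was not analysed here.

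**Figure D3:**
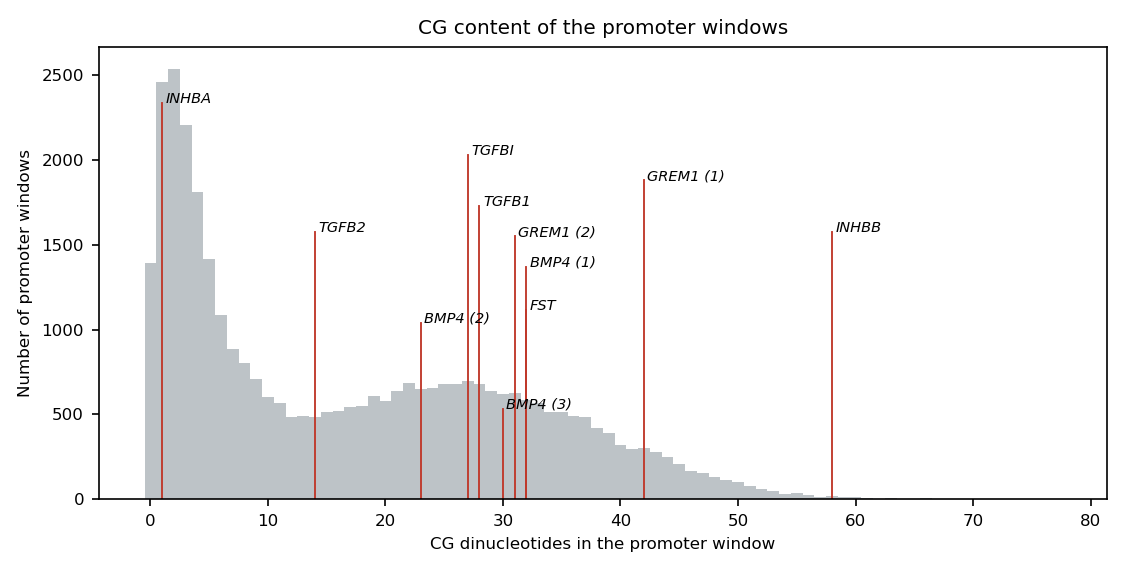
Number of RefSeq promoter windows (vertical axis) by the number of CG dinucleotides they hold (horizontal axis), with red lines at the 11 windows of 8 of the genes and numbers in parentheses for genes with several windows. INHBA stands at 1 CG and INHBB at 58, and the other windows lie between 14 and 42.

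The BMP ligands each responded in their own set of lines. BMP4 (chr14:53949736-53958761, minus strand), a ligand that in the gut is made mainly by the mesenchyme, rose in both EBV+ lines and in no EBV- line. YCCEL1 had 180.3 and 144 in DCB, against 30.4 and 29.0 in DMSO, a log2 change of 2.40 (SE 0.20, adjusted p = 1.18e-06). SNU719 had 233 and 269.6 in DCB, against 43.95 and 42.0 in DMSO, a log2 change of 2.52 (SE 0.20, adjusted p = 8.39e-07). In both lines the DCB level was more than 5 times the DMSO level. AGS, which had the highest DMSO level, had 475 and 407 in DCB and 551 and 608 in DMSO (log2 change -0.40, adjusted p = 0.171). SNU16 had 10.5 and 7.23 in DCB and 10.7 and 13.9 in DMSO, and HGC27 had 157 and 138 in DCB and 109 and 117 in DMSO (adjusted p = 0.253 and 0.217). In AGS and SNU16 the DCB libraries lay below the DMSO libraries and in HGC27 above them, without passing the test. The response of BMP4 did not differ detectably between YCCEL1 and SNU719, and each of these lines differed from each of the 3 EBV- lines, with adjusted p between 1.33e-05 and 0.000144 over those 6 of 10 line pairs.

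BMP7 (chr20:57168753-57266641, minus strand), a ligand known for its part in kidney development and for opposing TGF-beta there, rose most in YCCEL1 and AGS. It reached 128 and 184 in DCB libraries of YCCEL1, against 2.51 and 4.23 in DMSO libraries, a log2 change of 5.17 (SE 0.40, adjusted p = 5.36e-07). It reached 324 and 419 in DCB libraries of AGS, against 10.8 and 5.56 in DMSO libraries, a log2 change of 5.39 (SE 0.40, adjusted p = 2.44e-07). The mean in DCB was 46.4 times that in DMSO in YCCEL1 and 45.5 times in AGS, and the responses of YCCEL1 and AGS did not differ detectably. SNU719 had 19.8 and 12.3 in DCB and 4.51 and 6.15 in DMSO, a smaller change of 1.41 (SE 0.40, adjusted p = 0.0212) that was not called without DCB replicate 1 (0.170) or DMSO replicate 1 (0.129). The YCCEL1 and AGS responses each exceeded that of SNU719, with adjusted p of 0.000851 and 0.000331. HGC27 had by far the highest DMSO level, at 437 and 505, and 991 and 634 in DCB (log2 change 0.75, adjusted p = 0.209). SNU16 had 8.42 and 16.8 in DCB and 4.04 and 4.21 in DMSO (log2 change 1.34, adjusted p = 0.0624), a change that was called without DCB replicate 1 (0.0417).

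BMP2 (chr20:6767686-6780246, plus strand), a ligand known for driving bone formation and for restraining growth of gut epithelium, was the only one of the 10 genes called lower in any line. YCCEL1 had 178 and 172 in DCB, against 292 and 298 in DMSO, and its log2 change of -0.75 (SE 0.16, adjusted p = 0.00344) came from groups that did not overlap. AGS moved the other way, with 262 and 252 in DCB, against 47.3 and 43.6 in DMSO, a log2 change of 2.48 (SE 0.16, adjusted p = 5.95e-08). HGC27 had 86.5 and 86.3 in DCB, against 35.7 and 51.9 in DMSO, a log2 change of 0.99 (SE 0.16, adjusted p = 0.000368). That call was lost with each line fitted alone (adjusted p = 0.121). The increases in AGS and HGC27 took BMP2 above a low DMSO level. The fall in YCCEL1 was from the highest DMSO mean, which did not differ detectably from that of SNU16 (adjusted p = 0.122). SNU719 had 178 and 203 in DCB and 128 and 146 in DMSO, a log2 change of 0.47 (SE 0.16) that barely passed (adjusted p = 0.0494) and was not called in 18 of the 20 fits that left out 1 library (adjusted p of 0.0548 to 0.249 where it was lost). SNU16 had 242 and 244 in DCB and 235 and 232 in DMSO, a log2 difference of 0.06 (SE 0.16, adjusted p = 0.967). After DCB the range over the lines was 86.3 to 262, and in DMSO 35.7 to 298.

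Of the TGF-beta ligands, TGFB1 (chr19:41301587-41353922, minus strand), known for growth arrest of epithelial cells and for matrix production, was called in no single line and TGFB2 in AGS only. In YCCEL1 TGFB1 was 6.62 and 12.3 in DCB libraries, against 1.18 and 4.01 in DMSO libraries (log2 change 1.61, adjusted p = 0.0707). In SNU719 it was 455 and 445 in DCB and 305 and 294 in DMSO (0.58, adjusted p = 0.569). In HGC27 it was 580.2 and 561 in DCB and 296 and 336 in DMSO (0.85, adjusted p = 0.36). AGS was the line in which DCB libraries lay lower, at 728 and 774, against 995 and 1078 in DMSO (-0.46, adjusted p = 0.645). The groups did not overlap in any of these 4 lines or in SNU16, which had 22.1 and 14.9 in DCB and 1.27 and 12.2 in DMSO (1.81, adjusted p = 0.0926). The SE of 0.59 is shared by the lines, and the DMSO libraries of SNU16 differed most. Without SNU16 DMSO replicate 1 or 2 or YCCEL1 DMSO replicate 2 the YCCEL1 change was called (adjusted p = 0.00424, 0.00438 and 0.0492), without replicate 2 the SNU16 change was called too (log2 change 3.08, adjusted p = 0.000837), and with each line fitted alone those of SNU719 (0.0198), AGS (0.0452) and HGC27 (0.0325) were. TGFB1 overlaps HNRNPUL1 on the opposite strand, a gene with 1528 to 5649 normalized counts, as well as CCDC97 and TMEM91, and whether reads were counted by strand could not be settled from the sources.

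TGFB2 (chr1:218345336-218444619, plus strand), known for heart and eye development, was high in DMSO in HGC27 and YCCEL1 only. HGC27 had 144 and 237 in DCB and 262 and 257 in DMSO, and YCCEL1 had 117 and 113 in DCB and 94.7 and 95.1 in DMSO, and neither change was called (adjusted p = 0.668 and 0.858). AGS had 16.2 and 9.15 in DCB, against 1.42 and 2.28 in DMSO, a log2 change of 2.23 (SE 0.62, adjusted p = 0.0160). That call was lost without AGS DCB replicate 1 (0.118) and without AGS DMSO replicate 1 (0.0921). SNU719 and SNU16 stayed below 5 in every library.

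TGFBI (chr5:136028988-136063818, plus strand) encodes a secreted matrix protein that binds collagens and integrins and takes its name from its induction by TGF-beta. It was the one gene of the 10 called in all 5 lines, always higher in DCB. YCCEL1 had 33.0 and 39.9 in DCB, against 7.56 and 5.25 in DMSO (log2 change 2.35, SE 0.56, adjusted p = 0.00782). SNU719 had 63.4 and 58.0 in DCB, against 1.74 and 3.89 in DMSO (4.07, adjusted p = 0.000127), and AGS had 78.4 and 60.2 in DCB, against 2.09 and 6.11 in DMSO (3.90, adjusted p = 0.000131). SNU16 had 50.5 and 59.2 in DCB, against 7.60 and 9.06 in DMSO (2.58, adjusted p = 0.0127). HGC27 had 68.7 and 65.3 in DCB, against 0 and 3.07 in DMSO (5.07, adjusted p = 1.38e-05), a size that ran from 3.50 to 6.09 over the alternative settings. DCB levels lay in a narrow band of 33.0 to 78.4 in all 10 DCB libraries, and no DMSO library exceeded 9.06. The responses did not differ among the lines by the F test (adjusted p = 0.0627), though YCCEL1 alone against HGC27 did (log2 difference -2.72, SE 0.79, adjusted p = 0.0243), and over the 5 lines the change was 3.60 (SE 0.34, adjusted p = 8.13e-07). The single-line call in SNU16 was lost in each of the 4 fits without 1 of its own libraries (adjusted p of 0.0535 to 0.0805). With each line fitted alone the calls in YCCEL1 (0.0538), SNU16 (0.0782) and HGC27 (0.0727) were lost, and with quantile scaling that in YCCEL1 (0.0732). The call in YCCEL1 was lost without YCCEL1 DCB replicate 2 (0.0534) or DMSO replicate 2 (0.0624), and the F test passed without AGS DMSO replicate 2 (0.0426) or HGC27 DMSO replicate 2 (0.00427), and with quantile scaling (0.0306). Its promoter window (chr5:136028738-136029037, plus strand, with CG in capitals) holds 27 CGs and is shown for the one gene that responded in every line.
TGFBI: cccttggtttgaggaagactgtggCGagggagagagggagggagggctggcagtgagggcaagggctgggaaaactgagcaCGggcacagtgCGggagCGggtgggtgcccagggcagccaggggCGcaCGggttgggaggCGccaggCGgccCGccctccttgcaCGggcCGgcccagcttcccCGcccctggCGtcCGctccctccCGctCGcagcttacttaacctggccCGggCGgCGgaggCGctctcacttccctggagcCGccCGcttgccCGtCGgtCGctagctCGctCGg

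The antagonists rose mainly in AGS and, for GREM1, HGC27. GREM1 (chr15:32718004-32745106, plus strand), which binds BMP2, BMP4 and BMP7, reached 233 and 239.7 in DCB libraries of AGS, against 6.73 and 8.44 in DMSO libraries (log2 change 4.80, SE 0.35, adjusted p = 2.0e-07). HGC27 had 139 and 117 in DCB, against 5.53 and 10.8 in DMSO (3.87, SE 0.35, adjusted p = 1.74e-06). The means were 31.2 and 15.7 times those in DMSO. SNU16 already had 242 and 288 in DMSO, far above every other line, and 391 and 395 in DCB (0.57, adjusted p = 0.434). Neither EBV+ line responded detectably: YCCEL1 had 9.84 and 17.0 in DCB and 10.3 and 17.0 in DMSO (-0.03), and SNU719 had 14.5 and 12.9 in DCB and 8.72 and 13.8 in DMSO (0.29), with groups that overlapped in both. The responses of AGS and HGC27 each exceeded those of YCCEL1, SNU719 and SNU16, with adjusted p between 1.63e-05 and 0.000435 over those 6 pairs. The first of its 2 promoter windows (chr15:32717754-32718053, plus strand) holds 42 CGs, a number that 5.85% of windows reach, and is shown for the antagonist with the largest change.
GREM1: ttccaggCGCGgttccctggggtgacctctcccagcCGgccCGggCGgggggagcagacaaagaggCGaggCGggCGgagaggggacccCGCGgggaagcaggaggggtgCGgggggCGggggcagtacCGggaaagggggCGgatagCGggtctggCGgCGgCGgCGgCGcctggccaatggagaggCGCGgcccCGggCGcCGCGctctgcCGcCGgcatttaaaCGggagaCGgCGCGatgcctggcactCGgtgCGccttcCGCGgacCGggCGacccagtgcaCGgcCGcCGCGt

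FST (chr5:53480626-53487134, plus strand), the activin-binding protein, rose in AGS only, with 38.2 and 60.3 in DCB, against 3.13 and 2.93 in DMSO (log2 change 3.60, SE 0.84, adjusted p = 0.00548). HGC27 had 10.7 and 6.37 in DCB and 1.35 and 6.98 in DMSO, groups that overlap (1.10, adjusted p = 0.419). YCCEL1, SNU719 and SNU16 had 6.05 or less in every library and were listed at 0 in at least 1 of them. AGS was thus the line in which BMP2, BMP7, both activin subunits and both antagonists all rose. The difference in FST response between AGS and the other lines was called only against SNU16 (adjusted p = 0.0454), a pair with a group listed at 0, and the F test over lines did not pass (adjusted p = 0.123).

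In DMSO, the level of 8 of the 10 genes differed among the lines (F test), beside 67.7% of all tested genes. HGC27 was highest for INHBB (8.92 ± 4.47, SD, n = 2), ahead of AGS at 1.57 ± 0.952 (adjusted p = 0.00396), and also for BMP7 and TGFB2 among the genes that differed. BMP4 averaged 579.8 ± 40.6 (SD, n = 2) in AGS and 113 ± 5.94 in HGC27, followed by SNU719 at 43.0 ± 1.41 and YCCEL1 at 29.7 ± 1.01, which did not differ from each other (adjusted p = 0.0678), and by SNU16 at 12.3 ± 2.25. BMP7 averaged 471 ± 47.6 in HGC27 and 3.37 to 8.16 in the other lines, whose neighbours in the order did not differ. GREM1 averaged 265 ± 32.4 in SNU16 and 7.59 to 13.7 elsewhere, again with no difference between neighbours below SNU16. TGFB1 averaged 1036 ± 58.7 in AGS, ahead of HGC27 at 316 ± 28.7 and SNU719 at 299.7 ± 7.42, which did not differ detectably from each other, and of SNU16 at 6.75 ± 7.75 and YCCEL1 at 2.59 ± 2.01, which did not either. BMP2 averaged 295 ± 4.17 in YCCEL1 and 234 ± 2.12 in SNU16, with no detectable difference (adjusted p = 0.122), then 137 ± 12.7 in SNU719, and 45.5 ± 2.56 in AGS beside 43.8 ± 11.5 in HGC27. TGFB2 averaged 259 ± 3.72 in HGC27 and 94.9 ± 0.230 in YCCEL1 (adjusted p = 0.0733) and under 2 elsewhere. For TGFBI the F test passed (adjusted p = 0.0208), but no pair of neighbours in the order did, and it failed without HGC27 DMSO replicate 1 (0.0507) or SNU16 DMSO replicate 2 (0.0599). FST passed without YCCEL1 DCB replicate 1 (0.0370) or 2 (0.0375), at an adjusted p of 0.115 with all libraries.

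Over the 5 lines, 6 of the 10 genes were called higher in DCB, beside 17.9% of all tested genes, and none lower, beside 6.94%. These were TGFBI, INHBA (adjusted p = 0.00359), INHBB (0.000382), BMP7 (log2 change 2.81, SE 0.50, adjusted p = 0.000595), GREM1 (1.90, SE 0.50, adjusted p = 0.00893) and TGFB1 (0.88, SE 0.30, adjusted p = 0.0395). BMP4 (0.89, SE 0.32, adjusted p = 0.0503), FST, BMP2 (0.65, adjusted p = 0.081) and TGFB2 (0.60, adjusted p = 0.216) were not called. With HGC27 left out, chosen as an alternative after seeing the markers, GREM1 (adjusted p = 0.0826) and TGFB1 (0.112) were no longer called and 4 genes remained. The share of all tested genes was not taken without HGC27. TGFB1 was also lost in 13 of the 20 fits that left out 1 library, with values of 0.0511 to 0.078 where it was lost. BMP4 was called in 8 of those 20 fits, each without a library of AGS or SNU16 (0.0274 to 0.0487). FST was called in 4, without YCCEL1 DCB replicate 2, YCCEL1 DMSO replicate 1, SNU16 DMSO replicate 1 or HGC27 DMSO replicate 2 (0.0216 to 0.0497). BMP2 was called without YCCEL1 DCB replicate 2 (0.0494). In such bulk RNA, more cells with a transcript and more transcript per cell cannot be told apart.

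The response to DCB differed among the lines for 6 of the 10 genes, beside 34.2% of all tested genes. These were BMP2 (F test, adjusted p = 1.39e-06), BMP4 (2.0e-06), INHBA (4.89e-06), GREM1 (6.41e-06), BMP7 (2.21e-05) and INHBB (0.000528). TGFB1 joined them without SNU16 DMSO replicate 1 (0.0449) or 2 (0.00250), TGFB2 without SNU16 DCB replicate 1 (0.0190) or 2 (0.00755), and FST without YCCEL1 DCB replicate 1 (0.0234). With 5 in place of 1 added before the log, TGFB2 (0.0474), TGFBI (0.0198) and FST (0.00441) passed too, which made 9 of the 10 genes. The share of all tested genes was not taken under that setting. Between pairs of lines, the response of 7 of the 10 genes differed for YCCEL1 against HGC27, beside 21.8% of all tested genes in either direction, and that of 6 for AGS against SNU16, beside 13.3%. It was 5 for YCCEL1 against SNU16 (beside 9.65%) and 5 for SNU719 against AGS (13.5%). It was 4 for YCCEL1 against SNU719 (7.93%), 4 for YCCEL1 against AGS (15.3%) and 4 for AGS against HGC27 (21%). It was 3 for SNU719 against HGC27 (21.2%), 2 for SNU719 against SNU16 (10.1%) and 2 for SNU16 against HGC27 (13%). The mean response in EBV+ lines minus that in EBV- lines was higher for 3 genes, beside 10.5% of all genes, and lower for 2, beside 9.17%. BMP4 had a difference of 2.62 (SE 0.18, adjusted p = 2.78e-07), and INHBA and INHBB were higher in EBV+ lines too (adjusted p = 5.67e-06 and 0.00272). BMP2 had a difference of -1.31 (SE 0.14, adjusted p = 1.98e-05) and GREM1 one of -2.95 (SE 0.32, adjusted p = 1.57e-05). In CIMP+ minus CIMP- lines, 4 genes were higher, beside 12.8%, and none lower, beside 8.94%. They were INHBA (adjusted p = 5.63e-06), INHBB (0.000416), BMP4 (1.54, SE 0.18, adjusted p = 3.75e-05) and BMP7 (2.95, SE 0.36, adjusted p = 5.27e-05). With HGC27 left out the same EBV calls were made in number (5 genes). SNU16 was then the only CIMP- line, and BMP2 (adjusted p = 0.0032) brought the CIMP count to 5. For these counts too, no share of all tested genes was taken. Leaving out 1 library also added BMP2 (HGC27 DMSO replicate 1, 0.0489), TGFB1 (lower, SNU16 DMSO replicate 2, 0.0106) or TGFB2 (SNU16 DCB replicate 2, 0.00494) to the CIMP calls. With quantile scaling GREM1 was called lower in CIMP+ lines (-1.37, adjusted p = 0.00639). Its difference was -0.54 as deposited and 1.11 without HGC27, that is against SNU16 alone, and neither was called.

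These differences measure the spread between libraries, whereas the lines are the replicates of EBV or CIMP status. In an exact two-sided permutation test of the 5 line responses, 10 splits of the lines are possible and 0.1 is the smallest p. BMP4 and INHBA reached it for EBV status (exact permutation p = 0.1 each). For BMP4 both EBV+ lines responded more than all 3 EBV- lines. For INHBA the DCB libraries of YCCEL1 and AGS overlap, and without AGS DCB replicate 2 the fitted AGS change (3.36) is above that of YCCEL1 (3.28), sizes that rest on the added 1, so that its order depends on that library. Every other gene had an exact permutation p of 0.2 or more for EBV status, and every gene had one of 0.2 or more for CIMP status. For BMP7 the CIMP+ lines were uneven, since the SNU719 response (1.41) did not differ detectably from that of SNU16 (1.34, adjusted p of the difference = 0.981).

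The genes whose log2 values followed each member most closely over the 20 libraries, among 17584 genes with a group mean of at least 20, are given by Pearson's r as a description, since the libraries share lines and treatment. INHBA was followed most closely by MMP3 and RTL1 (0.940 each), INHBB by DKK3 (0.964) and NEBL (0.944), BMP2 by DNAJA4 (0.927) and CCNI2 (0.917), and BMP4 by TEX19 (0.965) and GRN (0.948). BMP7 was followed by TIMP3 (0.970) and SH3RF3 (0.968), TGFB1 by PTK7 (0.947) and HECA (0.945), and TGFB2 by HAS2 (0.955) and C1QL4 (0.939). TGFBI was followed by SYCP3 (0.939) and CTCFL (0.938), both known as genes of the germ line, FST by LINC02875 (0.884) and TNFAIP1 (0.871), and GREM1 by LXN (0.954) and LAGE3 (0.915).

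The numbers called among genes known to be induced by these ligands also varied by line. Of 15 tested genes known to be induced by TGF-beta or activin, 8 were higher in YCCEL1 (beside 14.6% of all tested genes) and 7 in SNU719 (13.5%). In AGS 5 were higher (18.5%), in SNU16 1 (4.5%) and in HGC27 4 (14.7%). In YCCEL1 1 was lower (beside 6.93%) and in AGS 1 (9.13%). Over the 5 lines 10 were higher (17.9%) and none lower (6.94%). TGM2, a transglutaminase that cross-links proteins, had 535 and 581 in DCB in YCCEL1, against 5.82 and 2.81 in DMSO (log2 change 6.78, SE 0.37, adjusted p = 1.97e-08). SNU719 had 26.8 and 21.3 of TGM2 in DCB, against 1.00 and 1.81 in DMSO (3.39, SE 0.37, adjusted p = 1.77e-05), while AGS had 400.2 and 385 in DCB and 640.4 and 543 in DMSO (adjusted p = 0.293). CDKN2B, a cyclin-dependent kinase inhibitor, rose in SNU719 (1004 and 959 in DCB, against 201 and 221 in DMSO, log2 change 2.22, adjusted p = 3.31e-06). In YCCEL1 CDKN2B had 48.5 and 42.9 in DCB and was listed at 0 in DMSO (adjusted p = 3.82e-10). PMEPA1, a brake on SMAD signalling, rose by 7.74 (SE 0.46, adjusted p = 3.46e-08) in AGS and by 2.84 (SE 0.46, adjusted p = 0.000542) in SNU719, and had a log2 change of 0.04 in YCCEL1.

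**Figure D4:**
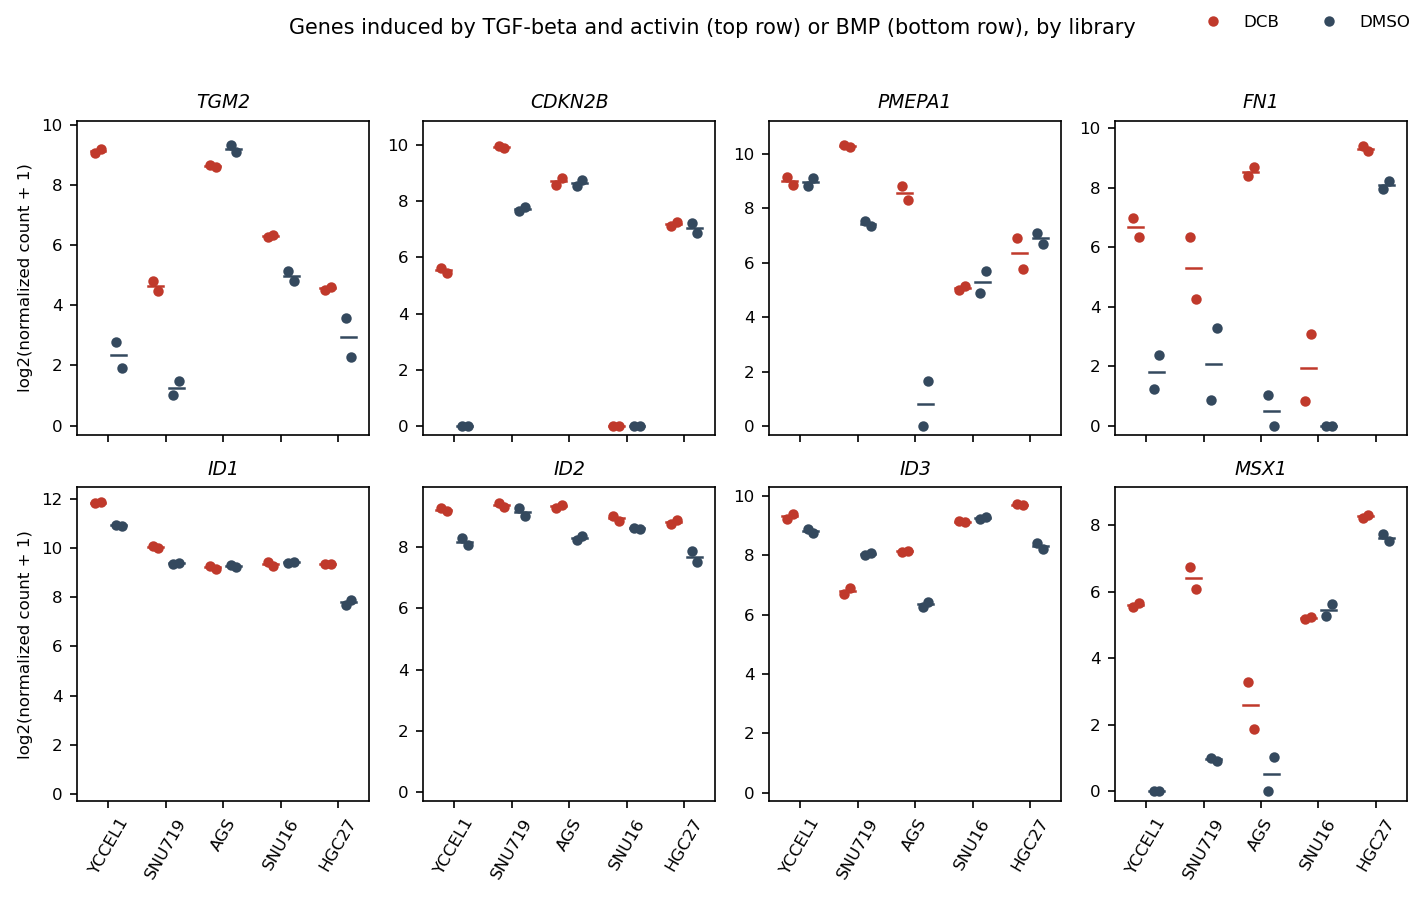
Log2(normalized count + 1) of 4 genes known to be induced by TGF-beta and activin (top row) and 4 by BMP (bottom row) in each library, by line, with DCB in red to the left of DMSO in dark blue and bars at the means. TGM2 is at 535 and 581 in DCB libraries of YCCEL1, against 5.82 and 2.81 in DMSO libraries, and ID3 is lower with DCB in SNU719 and higher in YCCEL1, AGS and HGC27.

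Of 10 genes known to be induced by BMP, 7 were higher in YCCEL1 (beside 14.6% of all tested genes), 3 in SNU719 (13.5%), 5 in AGS (18.5%), none in SNU16 (4.5%) and 7 in HGC27 (14.7%). In SNU719 2 were lower (7.64%), and none was lower in the other lines (2.34% to 9.13%). ID1, ID2 and ID3, which block basic helix-loop-helix factors, had different line patterns. ID1 had 654 and 645 in DCB in HGC27, against 206 and 236 in DMSO (log2 change 1.55, SE 0.08, adjusted p = 5.69e-09), and 618 and 564 in DCB in AGS, against 626 and 591 in DMSO (adjusted p = 0.77). ID3 was called in both directions, at 1.79 (SE 0.11, adjusted p = 3.93e-08) in AGS and -1.25 (SE 0.11, adjusted p = 2.1e-06) in SNU719. In YCCEL1 both ID1 (0.92, SE 0.08, adjusted p = 1.55e-06) and ID3 (0.50, SE 0.11, adjusted p = 0.00455) were called higher. MSX1, a homeobox factor, had 45.6 and 50.1 in DCB in YCCEL1 and was listed at 0 in DMSO (adjusted p = 6.17e-07), and rose by 5.45 (SE 0.44, adjusted p = 9.33e-07) in SNU719. In SNU719, BMP4 and MSX1 were higher while ID3 was lower, whereas in YCCEL1 BMP4, MSX1 and ID3 were all higher. ID4 had a low level throughout, with at most 15.5 in DCB libraries, and was listed at 0 in all 10 DMSO libraries (over the 5 lines, adjusted p = 1.3e-05).

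Of the other ligands, 21 of 26 were tested and 9 were higher over the 5 lines (beside 17.9% of all tested genes) with none lower (6.94%). In single lines 7 were higher in YCCEL1 (14.6%), 4 in SNU719 (13.5%), 6 in AGS (18.5%), 2 in SNU16 (4.5%) and 6 in HGC27 (14.7%). Of these ligands 1 was lower in AGS (9.13%) and 3 in HGC27 (9.03%). NODAL, an embryonic activin-like ligand, had 14.0 and 19.1 in DCB in SNU719, against 1.80 and 3.69 in DMSO (log2 change 2.26, SE 0.35, adjusted p = 0.000365), and 19.1 was its highest value. NODAL was called higher in YCCEL1 (adjusted p = 0.000331) and AGS (0.00203) too. LEFTY1, an antagonist of NODAL that is counted here with LEFTY2 among the ligands, had 26.4 and 26.9 in DCB in SNU719. It was listed at 0 in DMSO there (adjusted p = 0.00137). INHBE, the beta E subunit, fell in AGS to 2.22 and 5.09, against 132 and 142 in DMSO (-4.96, SE 0.45, adjusted p = 1.81e-06), and in HGC27 to 31.2 and 30.1, against 459 and 449.9 in DMSO (-3.85, SE 0.45, adjusted p = 2.31e-05), whereas it rose in YCCEL1 (1.55, SE 0.45, adjusted p = 0.0236). GDF15, a stress-responsive member, fell in HGC27 (-2.99, SE 0.39, adjusted p = 6.11e-05). TGFB3 rose in SNU16, with 259.7 and 256 in DCB, against 41.6 and 54.6 in DMSO (2.41, SE 0.56, adjusted p = 0.0187), and fell in HGC27 (-1.65, SE 0.56, adjusted p = 0.0479).

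Of the other antagonists, 12 of 14 were tested, and 6 were higher in AGS (beside 18.5% of all tested genes) with none lower (9.13%). In HGC27 3 were higher (14.7%) and 2 lower (9.03%), in SNU719 2 were higher (13.5%), in YCCEL1 1 was higher (14.6%), and in SNU16 none was called. In AGS, the BMP-binding NOG had 28.6 and 32.7 in DCB, against 3.57 and 2.24 in DMSO (log2 change 3.04, SE 0.37, adjusted p = 3.01e-05), and the follistatin-related FSTL1 had 766 and 431 in DCB, against 0.844 and 19.2 in DMSO (6.56, SE 0.78, adjusted p = 2.45e-05). FSTL3, which binds activin as FST does, rose in SNU719 (1.42, SE 0.14, adjusted p = 6.29e-06) and AGS (0.97, SE 0.14, adjusted p = 0.000136) and fell in HGC27 (-0.68, SE 0.14, adjusted p = 0.00266). In HGC27, BMPER had 160 and 142 in DCB, against 19.5 and 18.6 in DMSO (2.92, SE 0.60, adjusted p = 0.00242), and SOST had 20.6 and 18.7 in DCB and was listed at 0 in DMSO (adjusted p = 1.68e-08). NBL1 was called higher in YCCEL1, SNU719 and AGS and lower in HGC27 (0.48, 0.75, 0.93 and -1.07).

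Receptors and SMADs were called in both directions. Of 12 receptors, 1 was higher and 2 were lower over the 5 lines, beside 17.9% higher and 6.94% lower of all tested genes, with the activin receptor ACVR2B at -0.67 (SE 0.14, adjusted p = 0.00169) and ACVR1 at -0.32 (SE 0.11, adjusted p = 0.0371). In AGS, TGFBR2, the type II TGF-beta receptor, fell to 384 and 332, against 1262 and 1150.2 in DMSO (-1.75, SE 0.49, adjusted p = 0.0158), and BMPR2 fell too (-0.91, SE 0.17, adjusted p = 0.00108). BMPR1B was the 1 receptor called higher in YCCEL1 (adjusted p = 0.0225) and in AGS (0.0258), where 1 and 3 receptors were lower. The shares of all tested genes were 14.6% higher and 6.93% lower in YCCEL1, and 18.5% and 9.13% in AGS. TGFBR2 was below 10 in all HGC27 libraries. Of 12 SMADs and regulators, 2 were higher and 3 lower over the 5 lines, beside 17.9% and 6.94% of all tested genes. They were SMAD3 at 0.50 (SE 0.13, adjusted p = 0.00737), the inhibitory SMAD7 at 0.60 (SE 0.17, adjusted p = 0.0135), SMAD5 at -0.52 (SE 0.12, adjusted p = 0.00504), SMAD1 at -0.50 (SE 0.16, adjusted p = 0.026) and SMAD2 at -0.29 (SE 0.07, adjusted p = 0.00734). Of 7 co-receptors, 2 were higher and 1 lower over the 5 lines, beside 17.9% and 6.94% of all tested genes. RGMB, a BMP co-receptor, was the lower one (-0.81, SE 0.16, adjusted p = 0.00119). ENG, another co-receptor, was called higher in SNU16 (adjusted p = 0.000876), AGS (0.00628) and YCCEL1 (0.0332), while BAMBI and RGMB were called lower in AGS. Of 12 genes of latency and processing, 2 were higher and 1 lower over the 5 lines, beside the same 17.9% and 6.94%. LTBP2 was at 2.65 (SE 0.46, adjusted p = 0.000484) and LTBP1, which anchors latent TGF-beta in the matrix, at -0.38 (SE 0.10, adjusted p = 0.00747).

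**Figure D5:**
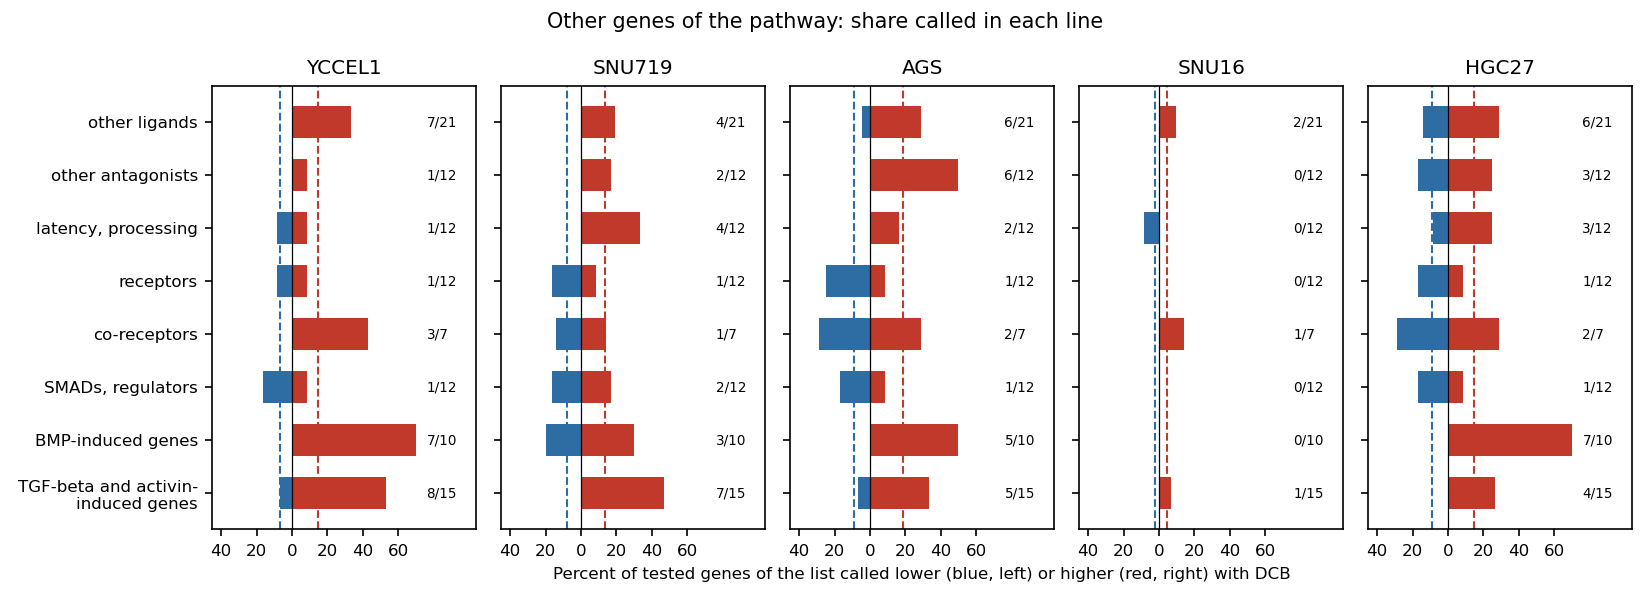
Percent of the tested genes of each list called lower (blue, to the left) or higher (red, to the right) with DCB in each line, with the number higher of the number tested and dashed lines at the percent of all tested genes called. The BMP-induced list reaches 7 of 10 higher in YCCEL1 and HGC27, and SNU16 has no list with more than 2 genes higher.

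Over the 95 tested genes of these lists together, 33 were higher and 7 lower over the 5 lines, 34.7% and 7.37%, beside 17.9% and 6.94% of all tested genes. In single lines 27.4% were higher in YCCEL1 (beside 14.6% of all tested genes), 23.2% in SNU719 (13.5%), 29.5% in AGS (18.5%), 4.21% in SNU16 (4.5%) and 26.3% in HGC27 (14.7%). The lower shares were 5.26% in YCCEL1 (6.93%), 6.32% in SNU719 (7.64%), 8.42% in AGS (9.13%), 1.05% in SNU16 (2.34%) and 12.6% in HGC27 (9.03%). The median log2 change of the 95 genes was 0.38 over the 5 lines, beside 0.15 for all tested genes. Fibroblast-type markers summed higher in DCB than in DMSO libraries in every line, at 91.6 to 97.0 against 8.77 to 31.9 in YCCEL1 and 2152 to 2287 against 476 to 526 in AGS, and COL1A1 is also in the TGF-beta-induced list. Endothelial markers (PECAM1, VWF, CDH5 and KDR) summed to at most 44.9 and blood markers (PTPRC, CD3E, CD68, CD14 and MS4A1) to at most 678 in any library, higher in DCB than in DMSO libraries in every line. Only 1 of the 5 blood genes averaged at least 10 in each group of YCCEL1, SNU719, AGS and SNU16, and none did in HGC27. The summed level of 10 reference genes was lower in DCB in every line, for example 183251 to 185041 in DCB and 244420 to 247413 in DMSO in YCCEL1. The part of these markers and of that level in the changes of the 10 genes was not tested.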

How the data were processed

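Total RNA of 5 gastric cancer cell lines was sequenced after 72 h of DCB or DMSO, with 2 libraries per group and 20 in all. The deposited values are signal: estimated counts per gene that the authors normalized across libraries, and 0% of them are whole numbers, so no count model was fitted. The submitters' notes name the aligner STAR (2.5.2b), the counter featureCounts (1.5.1), DESeq2 (1.14.1) and the build GRCh37, whereas the study's methods describe 3′ libraries and GRCh38. The deposited gene coordinates were identical to GENCODE v44 (GRCh38) for 92.6% of 60064 matched genes, so GRCh38 is used here. The labels name HGC27 where the study's methods name another line, and the labels are followed.

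Genes with a summed value above 10 were kept (27350). Log2(value + 1) was fitted with limma 3.58.1 in R 4.3.3 (lmFit, eBayes with trend). The model had 10 groups for single lines and for differences between lines, and line plus treatment for the change over the 5 lines. P-values are two-sided, with Benjamini-Hochberg adjustment over all tested genes. The comparisons of lines share the same libraries. The steps were tested on simulated data. Pathway genes were named by a rule, up to 4 from each list with the smallest adjusted p over the 5 lines and up to 3 in each line. The members and lists were chosen with earlier results of these data known. Promoters were taken from RefSeq (GRCh38.p14) and figures were drawn with matplotlib 3.10.9. Alternatives were the added value, filters, total and quantile scaling, no trend, a replicate block, each line alone, and leaving out 1 library or HGC27. Libraries with the same replicate number did not deviate together (correlations of -0.044 to 0.051). A few genes of the lists are not reported here and were left out of the counts.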

Additional observations from a re-analysis of the deposited data

Results flagged for a closer look

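The response to DCB differed between EBV+ and EBV- lines, by the limma contrast with adjusted p, for INHBA (5.67e-06), INHBB (0.00272), BMP2 (1.98e-05), BMP4 (2.78e-07) and GREM1 (1.57e-05). The mean response was higher in EBV+ lines for INHBA, INHBB and BMP4 and lower for BMP2 and GREM1. Single lines broke this order for BMP2, whose response was 0.47 in SNU719 and 0.06 in SNU16, and for INHBB, which in DCB was lower in SNU719 (2.88 and 6.79) than in AGS (26.1 and 24.1). It differed between CIMP+ and CIMP- lines for INHBA (adjusted p = 5.63e-06), INHBB (0.000416), BMP4 (3.75e-05) and BMP7 (5.27e-05), all with the higher mean response in CIMP+ lines. Single lines broke this order for BMP4, which was at -0.40 in AGS and 0.37 in HGC27. For BMP7 the order held, but SNU719 (1.41) did not differ detectably from SNU16 (1.34). It differed among the 5 lines, by the F test in limma, for INHBA (adjusted p = 4.89e-06), INHBB (0.000528), BMP2 (1.39e-06), BMP4 (2.0e-06), BMP7 (2.21e-05) and GREM1 (6.41e-06). With the lines as replicates, no gene can reach an exact permutation p below 0.1 for EBV or CIMP status. No group has the 4 samples that a test for a single outlying library needs.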

How the results depend on the processing

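No call among the 10 genes changed direction in the alternatives run. Over all gene results, 2753 stayed on their side of the threshold, 73 lost and 44 gained a call. The number of genes called in SNU16 (1 in the report) was 2 with quantile scaling and 0 with each line fitted alone, and that in HGC27 (4) was 2 with each line fitted alone and 2 when a log2 change above 2 was required. Leaving out 1 library gave 5 to 7 calls in YCCEL1, 4 to 6 in SNU719, 7 to 8 in AGS, 0 to 1 in SNU16, 3 to 4 in HGC27, 5 to 8 over the 5 lines, 5 to 5 for EBV, 4 to 5 for CIMP, 6 to 7 for differences among lines and 7 to 9 for DMSO levels. The share of all tested genes was not taken in fits without 1 library or of each line alone. With quantile scaling 908 of all tested genes were higher and 465 lower in SNU16, against 1230 and 641 as deposited. The replicate block lost BMP2 in SNU719 (adjusted p = 0.0785), INHBB in HGC27 (0.0765) and TGFB1 over the 5 lines (0.0686), and could not be fitted for DMSO levels. Of all genes called over the 5 lines, 72.1% were higher, against 82.4% with total scaling and 52.0% with quantile scaling. In single lines that share was 67.8% in YCCEL1 (78.7% with total and 56.9% with quantile scaling), 63.9% in SNU719 (70.3% and 55.0%), 66.9% in AGS (69.2% and 51.3%), 65.7% in SNU16 (77.1% and 66.1%) and 61.9% in HGC27 (72.8% and 54.8%). The median of all genes over the 5 lines was 0.15 as deposited and -0.05 with quantile scaling, so changes of that size are within the choice of scale. Single genes moved by more. With quantile scaling BMP7 in SNU719 (log2 change 0.73, adjusted p = 0.263) and TGFB2 in AGS (1.34, 0.133) lost their calls. TGFBI in YCCEL1 (1.53, 0.0732) and INHBB in HGC27 (1.12, 0.100) did too, as did GREM1 (1.45, 0.0552) and TGFB1 (0.61, 0.114) over the 5 lines. BMP4 in SNU16 gained a call, as lower (-0.86, 0.0208), beside the GREM1 and TGFBI calls named above. INHBA, INHBB, FST and TGFB2 have groups near 0, where fitted sizes depend on the added value. The causes of these changes were not tested.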
